A study of Mus musculus with 9 samples.

Results

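The cytosolic ribosomal protein genes are described here from RNA sequencing of the anterior lens capsule of mice, a basement membrane that carries the lens epithelium on its inner face. Members are the genes named Rpsa, Rplp0, Rplp1, Rplp2, or Rpl or Rps followed by a digit, without the S6 kinases, without symbols marked as pseudogenes and with at least 100 counts summed over the 9 libraries. The rule found 85 members among 17527 gene symbols, of which 51 have large-subunit names, 33 have small-subunit names and 1 (Rps19bp1) encodes a protein that binds a ribosomal protein. The other non-core members are 7 paralogs and retrocopies (Rpl22l1, Rpl36al, Rpl37rt, Rpl6l, Rpl7l1, Rps27l and Rps27rt), which leaves 77 core members. Of the 89 matching symbols, 4 fell under the count minimum, with Rpl32l at 89 summed counts the highest outside it, while Rps19bp1 at 2707 was the lowest inside. All 85 members passed the filter on low counts, as did 13711 genes in all. Fau and Rack1, which also encode proteins of the small subunit, lie outside the symbol rule and are given separately.

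The groups are EGCG-treated aged mice (epigallocatechin gallate, a green tea polyphenol), aged control mice and young control mice, with 3 libraries each. The labels give no strain, sex, age in numbers, dose, route or duration, and no source of the 3 libraries of a group, so a p-value reflects the spread between these libraries alone, which may be technical. The title of the series speaks of cataract in ageing and of EGCG, and the comparisons ask what differed with age and what differed with EGCG in aged tissue.

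The cytosolic ribosome translates messenger RNA in the cytoplasm and is built from ribosomal RNA and a set of ribosomal proteins, most of which are present in equal numbers in the particle. Most of the mammalian genes start at a cytosine within a run of pyrimidines (C and T), the terminal oligopyrimidine or TOP tract, through which mTOR signalling and the protein LARP1 control translation of their messages. In the lens, epithelial cells divide and keep their ribosomes, while fibre cells lose nuclei and organelles as they mature.

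To show the start regions of the genes at the ends of the range with age, the stretch from 40 bases before to 20 bases after the RefSeq start is given for the 4 members with the largest and the 4 with the smallest change that matched a RefSeq promoter. Sequences are from RefSeq on GRCm38.p6, read 5′ to 3′ on the strand of the gene, and capitals mark the longest run of C and T. The first 4 genes had the largest change with age, in the order of size, and the last 4 the smallest, starting from the lowest.
Rpl4: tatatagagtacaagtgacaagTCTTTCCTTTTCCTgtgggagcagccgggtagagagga
Rps19: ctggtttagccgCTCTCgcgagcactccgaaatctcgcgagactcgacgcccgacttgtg
Rps27l: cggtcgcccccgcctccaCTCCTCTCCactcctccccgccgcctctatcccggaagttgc
Rpsa: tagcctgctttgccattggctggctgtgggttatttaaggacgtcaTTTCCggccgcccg
Rpl34: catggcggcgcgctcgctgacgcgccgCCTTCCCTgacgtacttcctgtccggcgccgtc
Rpl41: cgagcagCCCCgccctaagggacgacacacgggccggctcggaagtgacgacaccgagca
Rpl22l1: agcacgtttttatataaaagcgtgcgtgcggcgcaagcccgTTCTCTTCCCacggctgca
Rpl7l1: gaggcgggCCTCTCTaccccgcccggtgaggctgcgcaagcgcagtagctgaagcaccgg

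The windows lie at chr9:64173347-64173406 (plus strand) for Rpl4, chr7:24884552-24884611 (plus) for Rps19, chr9:66946046-66946105 (plus) for Rps27l and chr9:120127726-120127785 (plus) for Rpsa. Those of the other 4 lie at chr3:130730379-130730438 (minus) for Rpl34, chr10:128549149-128549208 (minus) for Rpl41, chr3:28805468-28805527 (plus) for Rpl22l1 and chr17:46782637-46782696 (minus) for Rpl7l1. The longest run was 14 bases in Rpl4 and 4 bases in Rpl41, yet 10 bases in Rpl22l1, so the run did not order these 8 genes. It was taken anywhere in the window, so it need not be a TOP tract. It began at -18 in Rpl4, -28 in Rps19, -22 in Rps27l, -13 in Rpl34, -33 in Rpl41 and -32 in Rpl7l1. In these genes it ended before the RefSeq start. In Rpsa it began at 6 and in Rpl22l1 at 1, after the start base. A run of at least 8 bases was found in the window of 48.4% of the 64 members with a promoter, against 24.0% of all 27025 promoters. The longest run of any length had a median of 7 bases in these 64 members and 6 in all promoters. Its median was 6 bases in the 21 members that stood above the ribosomal average with age and 8.5 bases in the 26 below that average. Over the 300 bases of the promoter table, on both strands, CCGGAAG (the core letters of ETS family sites) was found in 37.5% of members and 9.12% of all promoters. TCTCGCG was found in 20.3% of members and 2.72% of all promoters, and TATAAA (the TATA box) in 9.38% and 14.2%. CTTTCC, whose letters can overlap the pyrimidine run, was found in 48.4% of members and 26.3% of all promoters. These matches describe letters, not binding.

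Library totals ranged from 13184169 to 16528179 counts, and all 26 lens fibre and 20 lens epithelium markers were detected. The photoreceptor list (28 rod and cone genes, none at 0 throughout) took 1.17% to 1.18% of counts in EGCG, 0.142% to 0.154% in aged control and 3.09% to 3.11% in young control libraries. All 28 were called lower in aged than in young control and higher in EGCG than in aged control. Lens fibre markers took 4.18% to 4.29%, 4.34% to 4.54% and 4.97% to 4.98% of counts in EGCG, aged control and young control libraries, and lens epithelium markers 1.02% to 1.05%, 1.03% to 1.11% and 0.948% to 0.954%. With age, 19 of 26 fibre markers were called higher and 6 lower on the scale described below, although their summed share was smaller. Library size alone gave 14 higher and 8 lower. Of 20 epithelium markers, 13 were higher and 2 lower with age, and 10 and 6 with library size alone. With EGCG against aged control, 14 fibre markers were lower and none higher, and 11 epithelium markers lower and 2 higher. Red blood cell markers took 0.00645% to 0.00746%, 0.00464% to 0.00552% and 0.0285% to 0.0286% in EGCG, aged control and young control libraries, with 5 of 6 tested lower with age and 4 higher with EGCG against aged control. Endothelial and mural markers took 0.0639% to 0.0676%, 0.0789% to 0.0847% and 0.0581% to 0.0612%, with 9 of 14 lower and 2 higher with age, and 5 lower and 1 higher with EGCG against aged control. These shares moved with the groups compared here, and their part in the results was not tested. In bulk tissue, fewer cells of a type and less RNA per cell cannot be told apart. Libraries were scaled by TMM, which sets the bulk of the genes level between libraries; the factors were 0.981 to 0.989 in EGCG, 0.881 to 0.926 in aged control and 1.119 to 1.131 in young control libraries.

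Ribosomal protein messages made up a larger part of the aged than of the young transcriptome. The 85 members took 7.26%, 6.77% and 6.62% of all counts in the 3 EGCG libraries, 7.55%, 7.33% and 6.96% in the aged control libraries, and 4.62%, 4.67% and 4.63% in the young control libraries. Aged control libraries were all above the young ones, with a mean of 7.28% ± 0.297 against 4.64% ± 0.0243 (SD, n = 3 each), and the EGCG mean was 6.89% ± 0.335. EGCG and aged control libraries overlapped. The two-sided exact permutation test gave p = 0.1 for aged control against young control and for EGCG against young control, the smallest p that 3 against 3 allows, and p = 0.2 for EGCG against aged control.

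**Figure D1:**
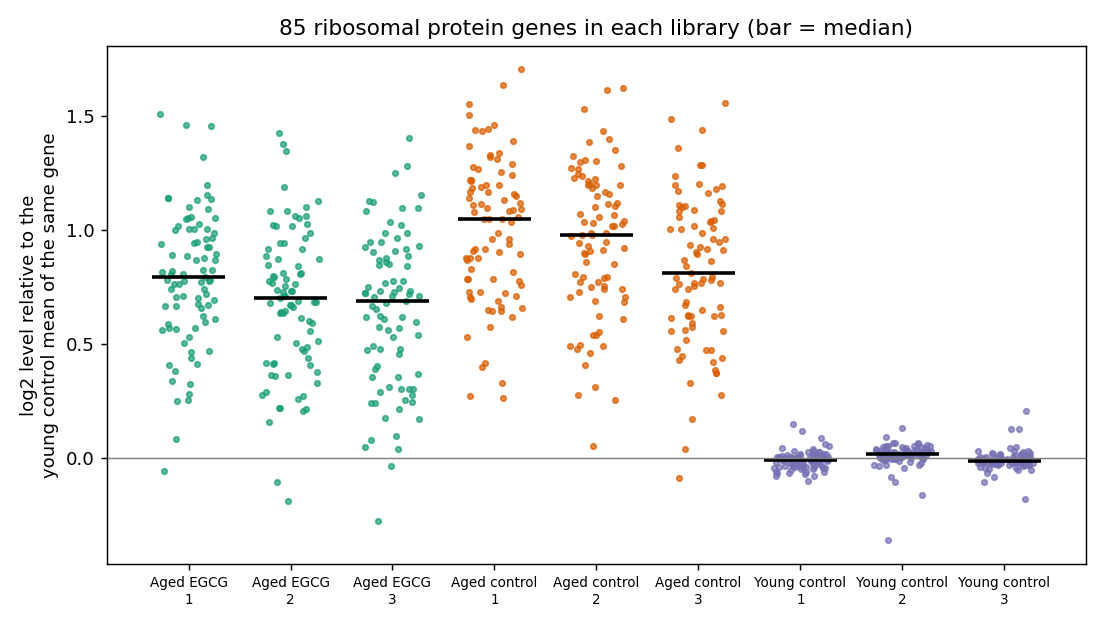
The log2 level of each of the 85 members (points) in each library, relative to the young control mean of the same gene on the TMM scale; the bar is the median over members. Nearly all members lie above 0 in the 6 aged libraries, and the medians of the EGCG libraries lie below those of the aged control libraries, a distance of -0.22 between groups. With other scalings this distance was -0.23 (DESeq2 size factors), -0.10 (library size alone) and -0.03 (lens fibre genes set the scale).

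With age, 84 of the 85 members rose and none fell, against 35.4% of all genes tested called higher and 33.8% called lower (edgeR quasi-likelihood test, Benjamini-Hochberg adjusted p under 0.05). For the same 84 members no aged control library overlapped a young one, against 36.9% of genes not overlapping in the higher direction. Their median log2 fold change was 0.97, or 1.96-fold, with a range of 0.11 to 1.62, beside 0.02 for all genes, and 39 members rose at least 2-fold. Both subunits took part, with 45 of 46 core large-subunit genes higher at a median of 0.99 and 31 of 31 core small-subunit genes higher at a median of 0.91. The member not called was Rpl34. Scaling by library size alone moved the median of all genes to -0.30 and that of the members to 0.65 and left 80 members higher and 2 lower. The members' median stood 0.95 above that of all genes under either scaling, which a change of scale cannot alter because it shifts all genes alike. With each library's trend with gene length removed, this distance was 0.45.

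**Figure D2:**
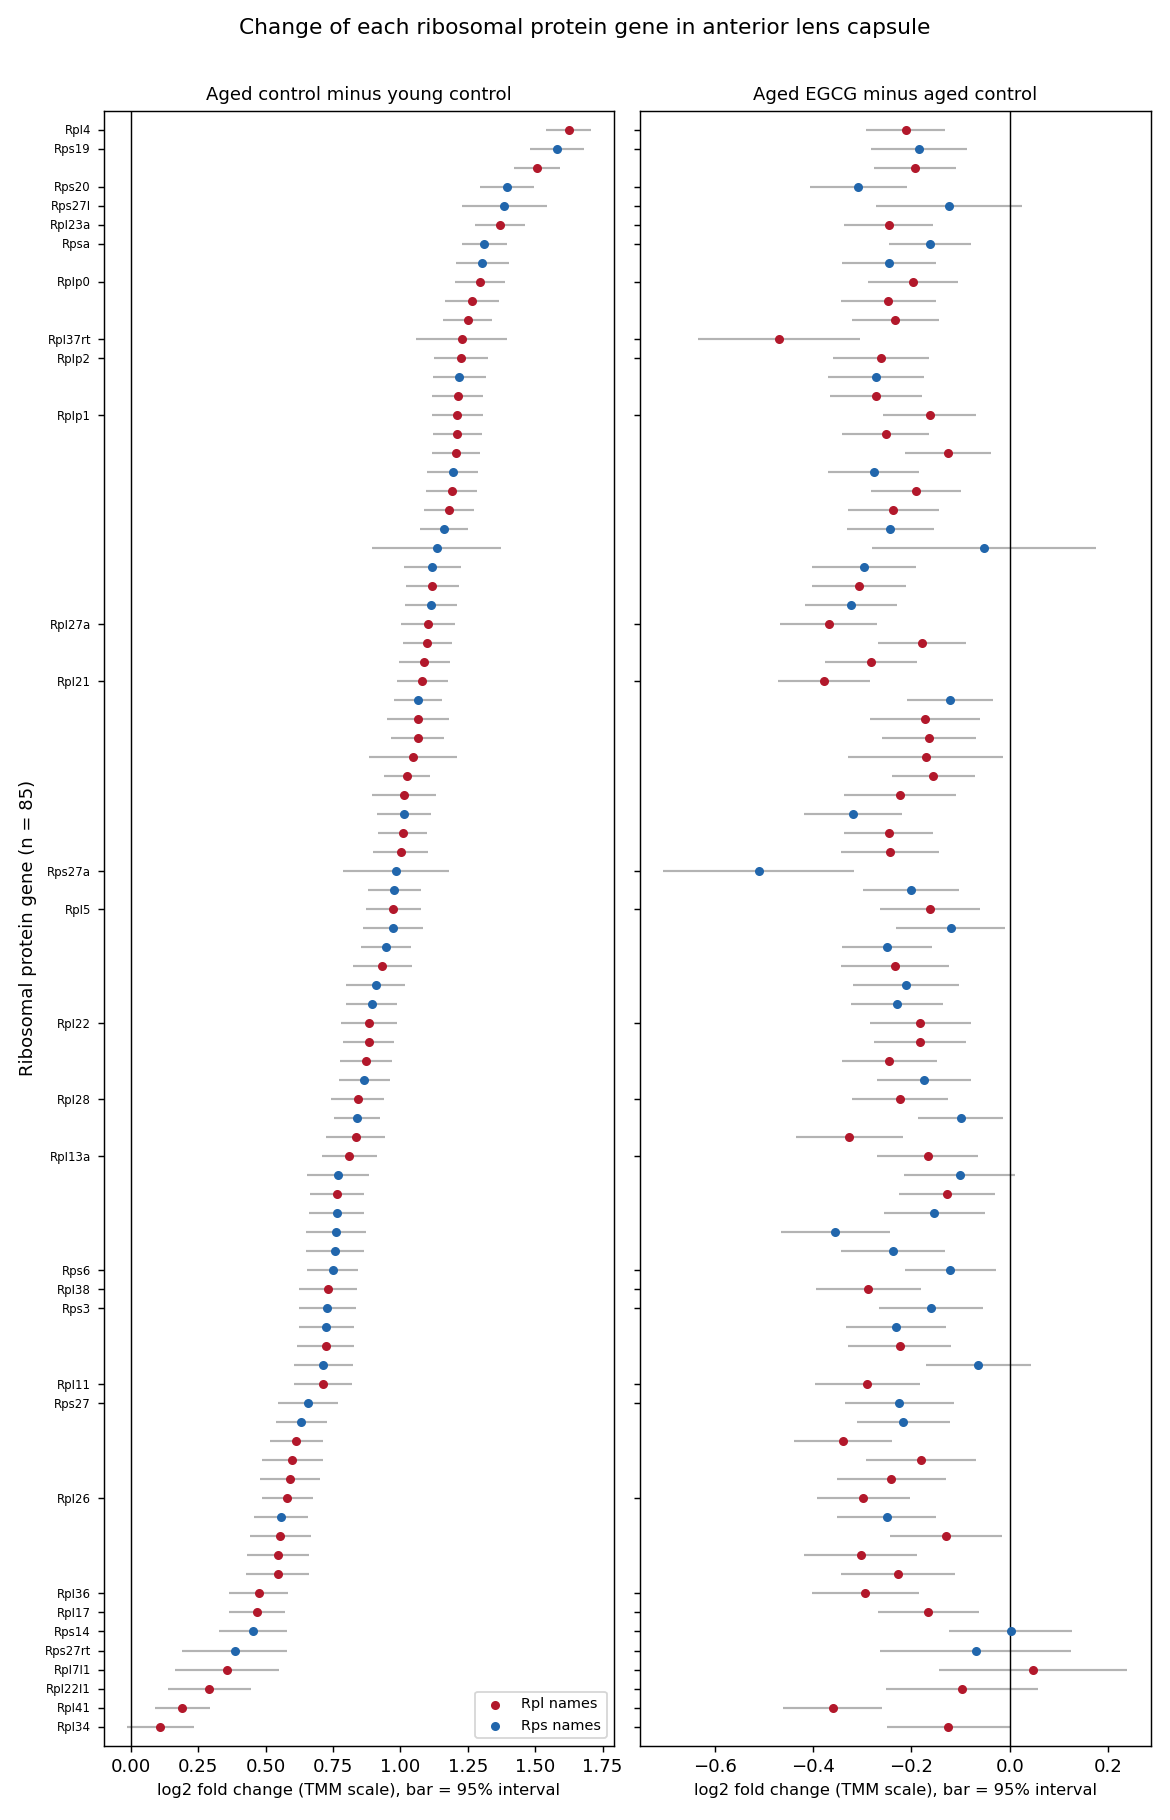
The log2 fold change of each member with its 95% interval, for aged control minus young control (left) and aged EGCG minus aged control (right), with a selection of genes labelled and all 85 in the order of the change with age from Rpl4 (1.62) at the top to Rpl34 (0.11) at the bottom. Red points are Rpl names and blue points Rps names; the order on the left is not kept on the right, where the values lie between -0.51 and 0.05.

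The members did not rise by the same factor. Rpl4, a large-subunit protein whose loop reaches into the exit tunnel of the nascent chain, had TMM-scaled FPKM (reads per length and depth) of 2177, 2049 and 1966 in aged control libraries, against 670.5, 663 and 674 in young control libraries. All aged control values were above all young ones, and the log2 fold change was 1.62 (SE 0.041, adjusted p = 2.14e-34), or 3.08-fold, the largest of the members. Rps19, a small-subunit protein whose human gene is mutated in Diamond-Blackfan anaemia, had 1704, 1689.8 and 1538 FPKM in aged control against 538, 558 and 552 in young control libraries. Its groups were also apart, with a log2 fold change of 1.58 (SE 0.050, adjusted p = 1.47e-30). Other members with large changes were Rps20 at 1.40, Rps27l at 1.38, Rpl23a at 1.37 and Rpsa at 1.31.

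At the other end, Rpl34 had 297, 245 and 222 FPKM in aged control libraries against 246, 232 and 231 in young control libraries. These groups overlapped, and the log2 fold change of 0.11 (95% interval -0.02 to 0.23, adjusted p = 0.112) was not called. Rpl41, the shortest ribosomal protein, had 2406, 2385 and 2059 FPKM in aged control against 2007, 2034 and 1960.3 in young control libraries. The groups did not overlap, and the log2 fold change was 0.19 (SE 0.050, adjusted p = 7.61e-04) on the TMM scale, whereas with library size alone it was -0.132 for Rpl41 and -0.215 for Rpl34, both called lower. The ratio of 2 members cancels such scaling. The level of Rpl41 was 1.11, 1.16 and 1.05 times that of Rpl4 in aged control libraries, against 2.99, 3.07 and 2.91 times in young control libraries, with no overlap. The corresponding ratio of Rpl34 to Rpl4 was 0.136, 0.120 and 0.113 in aged control against 0.366, 0.350 and 0.343 in young control libraries.

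**Figure D3:**
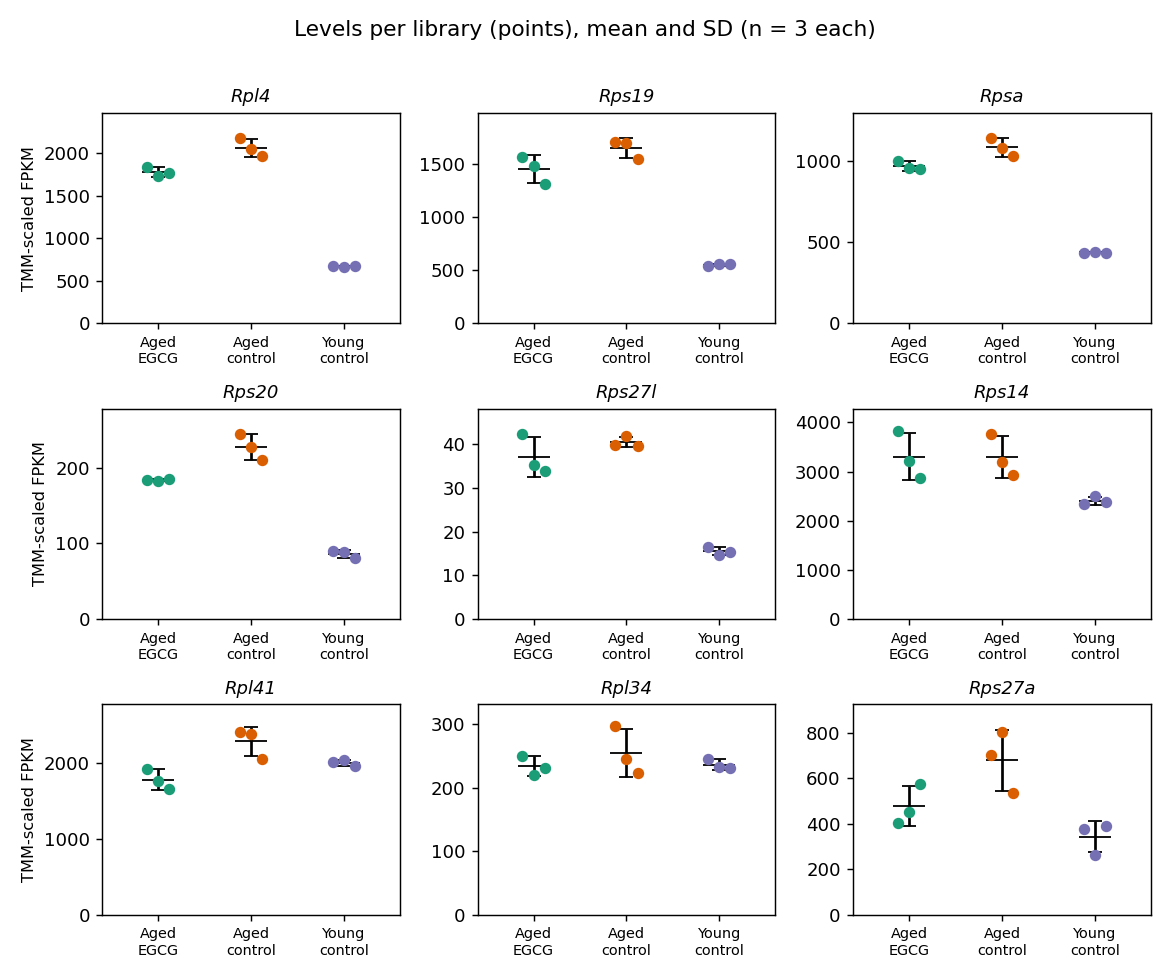
TMM-scaled FPKM of 9 members in each library (points), with mean and SD (n = 3 per group), in aged EGCG, aged control and young control tissue. Rpl4, Rps19, Rpsa, Rps20 and Rps27l stand well above young control in all 6 aged libraries, Rpl34 overlaps between all groups, and Rps27a has the widest spread.

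To compare members with one another, all libraries were scaled to the geometric mean of the 85 members, so that a call marks a change that differs from the ribosomal average. With age, 32 members stood above the average (3.81% of all genes did), 31 stood below it (76.9% of all genes did) and 22 were not apart. The deviations ran from -0.82 for Rpl34 (95% interval -0.96 to -0.68) and -0.73 for Rpl41 to 0.66 for Rps19 and 0.70 for Rpl4 (95% interval 0.60 to 0.80). Among core large-subunit genes 20 stood above and 16 below, and among core small-subunit genes 10 above and 12 below.  Rps14, whose loss in human blood progenitors is tied to the anaemia of the 5q deletion, deviated by -0.47. Rpl17 and Rpl36 followed at -0.46 and -0.45.

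The 3 proteins of the lateral stalk, which recruits elongation factors to the ribosome, moved close together. Rplp0, which anchors the stalk, had 2529.9, 2169.7 and 2085 FPKM in aged control against 928, 920.2 and 917 in young control libraries. Rplp1 had 4375, 4110.1 and 3719 FPKM in aged control against 1739, 1795 and 1736 in young control libraries, and Rplp2 had 2312, 2133 and 1979 against 868, 960.3 and 919. None of the 3 overlapped between the groups. Their log2 fold changes were 1.30, 1.21 and 1.23 (edgeR adjusted p = 3.02e-28, 1.32e-26 and 3.41e-26), and each stood above the ribosomal average, by 0.37, 0.29 and 0.30. Rpsa, also known as the precursor of the laminin receptor, had 1145, 1081 and 1030.4 FPKM in aged control against 434, 443 and 435 in young control libraries. It was likewise apart without overlap and stood above the average by 0.39. With EGCG the same 4 changed by -0.20 (Rplp0), -0.16 (Rplp1), -0.26 (Rplp2) and -0.16 (Rpsa) against aged control on the TMM scale, signs that turned for Rplp1 and Rpsa with lens fibre scaling, and none was apart from the average.

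Of 10 members also known for roles outside the ribosome, all rose with age, at a median log2 fold change of 0.78. Rpl5 and Rpl11, which bind the p53 regulator MDM2 together with 5S ribosomal RNA, changed by 0.97 and 0.71, and Rpl11 was below the ribosomal average. Rps6, the substrate of the S6 kinases, changed by 0.75, and Rps3, which also acts in DNA repair, by 0.73. Rpl38, needed for translation of Hox messages in the mouse embryo, changed by 0.73, Rpl13a, which represses translation of inflammatory messages in human myeloid cells, by 0.81 and Rpl26, which promotes translation of p53, by 0.58. Each of these 5 was below the ribosomal average. With EGCG against aged control all 10 were called lower on the TMM scale, at a median of -0.18, but 4 with library size alone and 1 with lens fibre scaling.

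The paralogs and retrocopies went to both ends of the range. Rps27l, a paralog of Rps27 that p53 induces in human cells, had 39.9, 41.9 and 39.7 FPKM in aged control libraries against 16.5, 14.6 and 15.4 in young control libraries. The groups did not overlap, and its ratio to Rps27 was 0.0231, 0.0251 and 0.0259 in aged control against 0.0160, 0.0135 and 0.0153 in young control libraries. Rpl22l1 ran the other way against its partner Rpl22. Rpl22l1 had 157, 143 and 133 FPKM in aged control against 128, 109.8 and 116 in young control libraries, a log2 fold change of 0.29 (SE 0.077, adjusted p = 8.50e-04) on the TMM scale that was -0.03 and not called with library size alone. Rpl22 had 172, 164 and 153 FPKM in aged control against 87.9, 88.6 and 88.8 in young control libraries. Their ratio was 0.912, 0.869 and 0.867 in aged control and 1.45, 1.24 and 1.31 in young control libraries, so Rpl22l1 exceeded Rpl22 per length in all 3 young libraries and in none of the aged control ones. Rpl36al to Rpl36a, by contrast, was 0.493 ± 0.021 in aged control and 0.465 ± 0.013 in young control libraries (SD, n = 3 each), with overlapping values. Rps27rt and Rpl7l1 were below the average, at -0.53 and -0.56. Of 10 listed paralogs, 7 were in the tables and 5 were tested, all higher with age on the TMM scale at a median of 0.39, and 2 were higher with library size alone. In EGCG libraries the ratio of Rpl22l1 to Rpl22 was 0.916, 0.984 and 0.911 and that of Rps27l to Rps27 was 0.0275, 0.0245 and 0.0275, on the side of the aged control libraries in every library.

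Levels per length ordered the members almost the same way in every group. Across the 85 members, the Spearman correlation of levels was 0.996 between EGCG and aged control, 0.956 between aged control and young control and 0.950 between EGCG and young control, a description across genes that are not independent replicates. Rpl28 averaged 3398 ± 278 FPKM in EGCG, 3967 ± 322 in aged control and 2213 ± 69.9 in young control libraries (SD, n = 3 each). Rplp1 averaged 3633 ± 247, 4068 ± 330 and 1757 ± 33.5 FPKM in the same order, and moved past Rpl28, Rps14 and Rpl41 to the first place in both aged groups, although its values overlapped those of Rpl28 in EGCG and in aged control libraries. Rps14 was first in young tissue at 2407 ± 82.8 FPKM, where its values lay above all 3 of Rpl28. The lowest core member was Rps15a, at 84.3 ± 3.28, 98.0 ± 4.23 and 63.2 ± 2.10 FPKM in EGCG, aged control and young control libraries. Within a factor of 2 of the core median lay 60 of 77 core members in EGCG, 59 in aged control and 62 in young control libraries.

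These levels depend on the gene length implied by the deposited count and FPKM tables, which was 346 to 5136 bases with a median of 795, against 3722 for all genes tested. That length was within 5% of the summed exons of GENCODE M21 for 4 of 85 members. Fold changes of 1 gene do not use the length. Members lay on 19 chromosomes of GRCm38, 14 of them on chromosome 7, and GENCODE M21 lists Rpl37rt and Rpl6l as pseudogenes. Of the 50-base words in the protein-coding transcripts of 83 members, a median of 47.4% also occurred in another annotated gene, from none in Rps19bp1 to 91.1% in Rps27rt, so counts of members with many copies are uncertain, since how shared reads were counted is not given in the sources used here. Members above the ribosomal average with age shared a median of 41.8% (n = 31), those below 44.7% (n = 31) and those not apart 70.0% (n = 21). Rpl34 shared 6.93% and Rpl4 16.5%.

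The change with age rose weakly with implied length across members and fell with it across all genes, over unlike ranges of length. The median length was 795 bases in members and 3722 in all genes tested. Across members the Spearman correlation of the change with age and length was 0.21 (n = 85), against -0.33 across all 13711 genes tested, described without a test because genes of 1 library share its depth and composition. In the length class of 500 to 1000 bases, 41 members had a median log2 fold change of 0.95 and 506 other genes one of 0.50. From 1000 to 2000 bases the medians were 1.02 for 22 members and 0.39 for 2100 other genes, and from 2000 to 4000 bases 1.08 for 6 members and 0.15 for 4657 others. Under 500 bases they were 0.84 for 15 members and 0.16 for 57 others. Over 4000 bases the 1 member, Rps15a, was at 0.63, below the members' medians of the shorter classes, and 6306 others had a median of -0.28. The medians of the other genes thus did not fall steadily with length among the short classes, where most members lay. Removing each library's trend with length brought the members' median to 0.44, with 69 members higher and 5 lower. The Spearman correlation of change and length across members was then 0.54, larger than before. Abundance moved with the result as well, since among other genes with a mean level of at least 100 FPKM, 81.8% of 362 were called higher with age, at a median of 0.69, against a median of 0.95 for the 79 members above that level. With the length trend removed these medians were 0.32 for the other genes and 0.42 for the members. The part of length and abundance in the change was not tested.

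**Figure D4:**
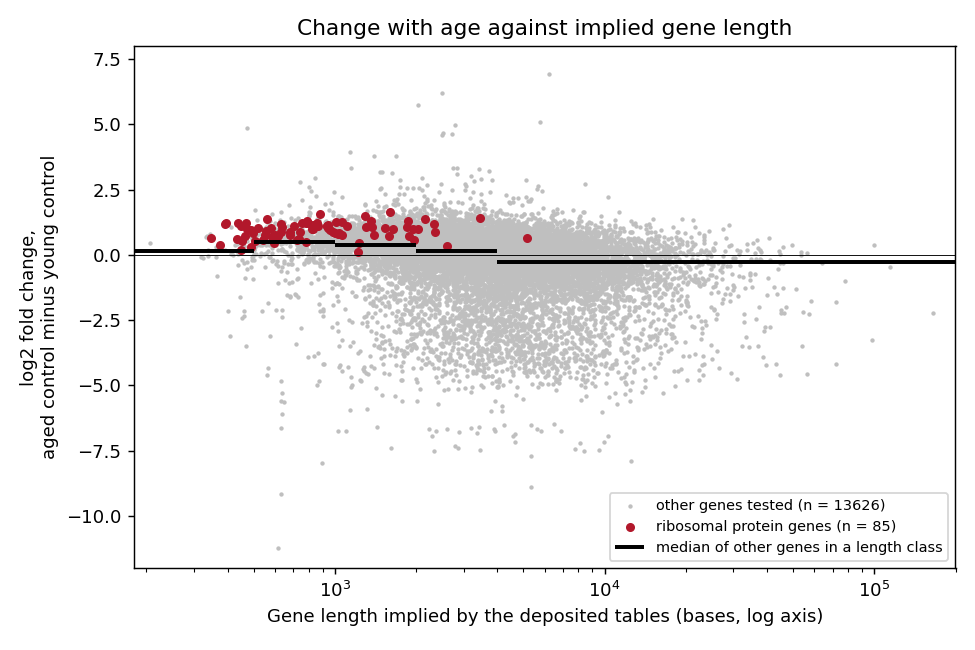
The log2 fold change of aged control minus young control against implied gene length on a log axis, for the 85 members (red) and the 13626 other genes tested (grey); black bars are medians of the other genes in 5 length classes. On the TMM scale shown all members lie above 0 (Rpl34, Rpl41 and Rpl22l1 lie below 0 with library size alone) and most lie above the bar of their class, while the bars fall to -0.28 over 4000 bases.

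EGCG-treated aged tissue had slightly lower ribosomal protein messages than aged control tissue on the TMM scale, a result that depended on the scaling. Of the 85 members, 72 fell, none rose and 13 were not called, against 10.3% of all genes called lower and 13.8% called higher (edgeR, adjusted p under 0.05). Among the 362 other genes with a mean level of at least 100 FPKM, 44.2% were called lower and 9.12% higher, at a median of -0.12, beside -0.23 for the 79 members above that level. The members' count changed with the scaling, since 30 fell with library size alone, 9 fell and 3 rose when lens fibre genes set the scale, and 13 fell and 1 rose when lens epithelium genes did. On the TMM scale these lens genes were themselves lower with EGCG, at a median of -0.16 for the fibre and -0.27 for the epithelium list. For 51 members all EGCG libraries lay below all aged control libraries, against 15.7% of all genes. The median log2 fold change was -0.22, or 1.17-fold, with a range of -0.51 for Rps27a to 0.05 for Rpl7l1. Library size alone moved the median of all genes from about 0 to 0.12 and that of the members to -0.10. The distance of the members from all genes was -0.22 under each of these 4 scalings, which a change of scale cannot alter. With the length trend removed it was -0.115. On log2(FPKM + 1), limma called 15 members lower, at a median of -0.10. No member changed 2-fold, and with lens fibre scaling the sign turned for 33 members.

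Libraries within the aged groups differed by amounts close to this change. Of the 85 members, 75 were highest in EGCG replicate 1 among EGCG libraries and 62 were lowest in EGCG replicate 3, while 58 were highest in aged control replicate 1 and 81 were lowest in aged control replicate 3. The mean log2 level of the members was 9.52 in the highest EGCG library and 9.55 in the lowest aged control library. Leaving out single libraries gave 55 to 77 members lower. The median coefficient of variation of a member was 5.76% in EGCG, 7.34% in aged control and 2.11% in young control libraries.

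Rpl4 fell to 1842, 1738 and 1766 FPKM in EGCG libraries, against 2177, 2049 and 1966 in aged control libraries, with no overlap and a log2 fold change of -0.21 (SE 0.040, adjusted p = 4.31e-05). Rpl41 fell further, to 1924, 1759 and 1653 FPKM in EGCG against 2406, 2385 and 2059 in aged control libraries, a log2 fold change of -0.36 (SE 0.050, adjusted p = 1.12e-07). Rps14 had 3816, 3210.1 and 2873 FPKM in EGCG against 3773, 3192 and 2921 in aged control libraries. These overlapped throughout, and the log2 fold change was 0.00 (adjusted p = 0.989). Rps27a, which encodes ubiquitin fused to a ribosomal protein, had the widest spread of all members in each group, with 404, 451 and 576 FPKM in EGCG, 700.3, 801 and 535 in aged control and 376, 264 and 391 in young control libraries. Its EGCG and aged control values overlapped, although the fitted log2 fold change of -0.51 (SE 0.096, adjusted p = 4.30e-05) was called, and it shared 72.0% of its words with other genes.

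Scaled to the members, 5 differed from the ribosomal average in this comparison. Rps14 stood above it by 0.22 (95% interval 0.10 to 0.34, adjusted p = 0.00454), where 29.8% of all genes did. Rpl37rt, Rpl21, Rpl27a and Rpl41 stood below it by 0.25, 0.16, 0.15 and 0.14, where 2.36% of all genes did. Rpl21, a large-subunit protein, had 252, 239.7 and 234 FPKM in EGCG against 316, 329 and 298 in aged control libraries, and Rpl27a had 749, 659 and 703 against 979, 909 and 836. The retrocopy Rpl37rt had 79.9, 76.6 and 72.9 FPKM in EGCG against 122, 103 and 92.7 in aged control libraries. None of these 3 overlapped between the groups. The other 80 were not apart, which does not show that they changed alike. Deviations over all members ran from -0.28 to 0.26, and the members at these 2 ends were not called. The 5 became 1 without aged control replicate 2 and 2 without EGCG replicate 2. The 13 members not called lower on the TMM scale included Rpl22l1, Rpl34, Rpl6l, Rpl7l1, Rpl9, Rps12, Rps14, Rps16, Rps19bp1, Rps2, Rps27l and Rps27rt, and 6 of the 13 are outside the core.

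Against young control tissue, which also served in the comparison with age, EGCG tissue kept higher ribosomal protein messages. Of the 85 members 83 were higher, Rpl41 was lower and Rpl34 was not called, against 32.3% of all genes higher and 31.4% lower (edgeR, adjusted p under 0.05). No overlap was seen for 82 in the higher direction, against 33.9% of all genes. The median log2 fold change was 0.70, or 1.63-fold, and with library size alone it was 0.51, with 74 members higher and 2 lower. Rpl41 was at -0.17 (SE 0.050, adjusted p = 0.00306) and Rpl34 at -0.02 (adjusted p = 0.835). Scaled to the members, 28 stood above the average (5.15% of all genes) and 26 below it (69.3% of all genes), with Rpl4 at 0.71 and Rps19 at 0.69 at the top and Rpl41 at -0.88 and Rpl34 at -0.72 at the bottom.

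Rack1 and Fau, outside the symbol rule, were higher with age as well. Rack1, a signalling scaffold on the small subunit, had 913 ± 111 TMM-scaled CPM (counts relative to depth) in aged control against 438 ± 2.66 in young control libraries (SD, n = 3 each), and its log2 fold change was 1.06 (edgeR adjusted p = 1.35e-22). Fau, a fusion with a ubiquitin-like protein, changed by 0.75 and was called higher. With EGCG against aged control, Fau changed by -0.24 and was called lower, though not with library size alone, and Rack1 at -0.10 was not called.

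Other TOP messages and elongation factors, in lists chosen with earlier results of these data known, rose with age as well. Of 21 TOP genes tested that are not ribosomal, 18 were higher with age and none lower, at a median log2 fold change of 1.07, and with library size alone 17 were higher and 3 lower. Of all genes tested 35.4% were called higher with age. Among the 362 genes outside the members with a mean level of at least 100 FPKM, 81.8% were, a share close to that of the TOP genes, at a median of 0.69. Eif3f, an initiation factor subunit, changed by 1.49, and the elongation factors Eef1a1 and Eef2 by 1.22 and 1.21. Among 15 elongation and termination factors 11 were higher and 2 lower. One of the 2 was Eef1a2, the isoform of neurons and muscle, at 10.6 ± 0.323 CPM in aged control against 124 ± 1.21 in young control libraries (SD, n = 3 each), in the same direction as the photoreceptor list. EGCG tissue was above aged control in Eef1a2 by 2.64 on the log2 scale. With EGCG against aged control, 10.3% of all genes and 44.2% of those 362 genes were called lower. In that comparison 10 of the 21 TOP genes were lower and none higher, and with library size alone 1 was lower and 4 higher. Nap1l1, a nucleosome assembly protein, had the largest of these changes among the 4 named by smallest p, at -0.40, followed by Btf3 at -0.24, Tpt1 at -0.20 and Pabpc1, the poly(A) binding protein, at -0.17.

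The machinery that makes ribosomes changed less uniformly with age. Of all genes tested, 35.4% were called higher and 33.8% lower. The shares of polymerase genes higher and of regulators higher and lower, given below, were close to these. Of 55 ribosome assembly genes 30 were higher and 9 lower at a median of 0.28, a direction that turned with library size alone (15 higher, 16 lower, median -0.04). Nucleolin (Ncl) changed by 0.92 and Eif6, which keeps the subunits apart, by 0.91, while Rrp1b changed by -2.47 and Mdn1, an assembly ATPase, by -1.27. RNA polymerase I genes gave 5 higher and 1 lower of 15 at a median of 0.22, and 3 higher and 6 lower at -0.10 with library size alone. Polr1d changed by 1.15, Taf1d by 1.08, Cd3eap by 0.95 and Ttf1 by -0.69. Among 17 regulators of TOP translation 6 were higher and 6 lower, at a median of -0.03, against 2 higher and 10 lower at -0.35 with library size alone and 9 higher and 4 lower at 0.22 with the length trend removed. Named by smallest p were Eif4ebp1, the repressor of cap-dependent initiation, at 1.64, Larp1 at 0.37, Tia1 at -0.97 and the S6 kinase gene Rps6kb2 at -1.49. In 17 ribosome quality control genes 10 were higher and 4 lower at a median of 0.30, against 6 higher and 7 lower at -0.03 with library size alone. Edf1, a sensor of collided ribosomes, changed by 0.99. With EGCG against aged control, 2 assembly genes were higher (Rrp1b and Gar1) and 2 lower (Ncl and Mdn1), 1 polymerase gene was higher (Polr1b) and 1 lower (Polr1d), and 1 regulator was higher (Eif4ebp2) and 2 lower (Mtor and Tia1). Of all genes tested, 13.8% were called higher and 10.3% lower in that comparison. None of the 17 quality control genes was called in that comparison by edgeR on the TMM scale, and with library size alone 2 were called higher.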

How the data were processed

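Libraries came from total RNA and a SMARTER kit for mRNA-Seq, per the labels' protocols; per the submitters' processing notes the builds were GRCm38 and mm10. How reads were aligned and counted, with which annotation and whether by strand, is not given in the sources used here. Whole-number read counts per gene symbol were deposited by the authors with FPKM, normalized to library total and gene length, in a second table; all 138164 nonzero FPKM entries equalled count over library total and 1 length per gene within 0.01%, which gave the implied lengths. Counts were tested with edgeR 4.0.16 (quasi-likelihood, TMM, filterByExpr, group means of all 9 libraries in 1 fit, two-sided) in R 4.3.3, with Benjamini-Hochberg adjustment over 13711 genes and a threshold of 0.05; the biological coefficient of variation was 7.89%. Fold changes given for a gene are on this scale unless another is named. A second fit scaled libraries to the geometric mean of the members. limma 3.58.1 ran on log2(FPKM + 1) and log2(FPKM + 0.1), and DESeq2 1.42.0 on the counts. The fit was checked on simulated counts with known changes. The members and lists were chosen with earlier results of these data known. Genes were named by rule: for each comparison the 5 members highest and lowest in fold change, in deviation from the average and in level, the paralogs, the members with other roles, Rpsa and the stalk, and 4 called genes per other list by smallest p. Some genes that the rule names are not reported here. Rpl17, Rpl23a and Rps15a lie outside the rule and were chosen after their values were seen, as were the partners Rpl36a and Rps27 and the other uncalled members listed. Libraries of a group differed by more than sampling noise, so none was treated as a duplicate. A count of 3 in a library is 0.182 to 0.228 CPM; errors cover counting and the spread between libraries only. A list of snoRNA host genes had no member in the tables.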

Additional observations from a re-analysis of the deposited data

Results flagged for a closer look

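A gene left out of the members by its pseudogene symbol, Rpl27a-ps4, was higher in aged control than in young control libraries. It had 42, 54 and 29 counts in EGCG, 75, 41 and 36 in aged control and 29, 27 and 18 in young control libraries, with a log2 fold change of 1.22 between aged control and young control (edgeR adjusted p = 0.00282). The aged control and young control counts did not overlap. Of the 9 pseudogene symbols the deepest, Rpl34-ps1, had between 305 and 687 counts per library and a log2 fold change of 0.04 with age (edgeR adjusted p = 0.761).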

How the results depend on the processing

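The count of members higher with age was 69 to 85 and that of EGCG against young control 62 to 83 under every alternative run, whereas that of members lower with EGCG against aged control moved from 72 to 30 with library size alone, 9 with lens fibre genes and 13 with lens epithelium genes as the scale (the last chosen after seeing the data), 44 with the length trend removed, and 15 and 16 with limma on log2(FPKM + 1) and log2(FPKM + 0.1). In the order library size, lens fibre, lens epithelium, length trend removed, limma + 1 and limma + 0.1, the members' median log2 fold change was 0.647, 0.583, 0.555, 0.442, 0.642 and 0.642 with age, -0.0963, -0.0287, -0.0529, -0.113, -0.0966 and -0.0968 for EGCG against aged control, and 0.507, 0.508, 0.455, 0.337, 0.504 and 0.505 for EGCG against young control. Single libraries left out gave medians of 0.902 to 1.03, -0.271 to -0.178 and 0.679 to 0.742. Members apart from the ribosomal average in EGCG against aged control numbered 5, and 3 without a filter, 18 with the length trend removed, 10 with the replicate block and 1 to 7 without single libraries. The difference in share of counts, outside the 10 most abundant genes, was 4.63, -1.16 and 3.46 percentage points in the 3 comparisons, and 4.37 and 4.17 as a share of summed FPKM with age and for EGCG against young control.

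Over all 85 members, the sign of the change with age turned for 3 with library size alone, 5 with lens fibre or lens epithelium scaling and 10 with the length trend removed (5 of these called lower); that of EGCG against aged control turned for 13, 33, 23 and 6; and that of EGCG against young control for 2, 2, 3 and 12 (6 of these 12 called lower). Values follow for the members named by rule. With age, in the order above, Rpl22l1 was -0.0334, -0.0986, -0.127, -0.316, -0.0324 and -0.0326, Rpl34 -0.215, -0.279, -0.307, -0.329, -0.222 and -0.222, and Rpl41 -0.132, -0.198, -0.226, -0.423, -0.134 and -0.134. Rpl7l1 was -0.0312 and -0.0601 with fibre and epithelium scaling, Rps27rt -0.00369, -0.0327 and (length) -0.242, Rps14 -0.130 and Rpl26 -0.0123 with the length trend removed. Rps16 was 0.131 with fibre scaling in EGCG against aged control. In EGCG against young control, Rpl22l1 was -0.00150, -0.00119, -0.0532, -0.243, -0.00220 and -0.00222, Rpl36 -0.0138, -0.0133, -0.0660, -0.246, -0.0149 and -0.0149, and Rpl35 -0.00493 (epithelium) and -0.196 (length). The cause was not tested. Replicate numbers are shared between groups, but the 9 same-numbered pairs correlated at -0.00545 to 0.0361 in their deviations, so the numbers did not pair the libraries; with the replicate block 84, 75 and 83 members were called, against 84, 72 and 83 without it.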
